A study of Mus musculus with 26 samples.

Results

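The 10 genes described here encode the laminin chains, nidogens and heparan sulfate proteoglycans that build the basement membrane of the arterial wall. They were chosen by name: the laminin alpha chains Lama2 (ENSMUSG00000019899), Lama4 (ENSMUSG00000019846) and Lama5 (ENSMUSG00000015647), the beta chains Lamb1 (ENSMUSG00000002900) and Lamb2 (ENSMUSG00000052911), the gamma chain Lamc1 (ENSMUSG00000026478), the nidogens Nid1 (ENSMUSG00000005397) and Nid2 (ENSMUSG00000021806), perlecan, encoded by Hspg2 (ENSMUSG00000028763), and agrin, encoded by Agrn (ENSMUSG00000041936). All 10 were found by symbol among the 55414 gene identifiers that every table lists, and all 10 passed the filter on low counts in every fit.

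Poly(A) RNA was measured in the mesenteric arteries, the small vessels that feed the gut, and in the aorta of male mice, with 13 libraries per tissue. All mice carried loxP-flanked Sphk1 alleles (Sphk1f/f) on the C57BL6J background. Sphk1 encodes sphingosine kinase 1, which makes the signalling lipid sphingosine-1-phosphate. The KO AngII group (n = 5 per tissue) carried Cre under the mouse Tagln (SM22 alpha) promoter, which drives the deletion in smooth muscle, and received a vasoconstrictor peptide, angiotensin II (AngII), for 14 days at 490 ng/kg/min from a subcutaneous pump implanted at 12 to 14 weeks of age. The WT AngII group (n = 4) had no Cre and the same infusion, and the WT sham group (n = 4) had no Cre and no AngII. None of the 26 libraries is from a sham group with the deletion, and the effect of the deletion is therefore known only for AngII-infused mice.

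Basement membranes are sheets of extracellular matrix that surround each smooth muscle cell and underlie the endothelium. A laminin is a trimer of 1 alpha, 1 beta and 1 gamma chain. The alpha chain binds the receptors on the cell, integrins and dystroglycan, and the trimers join into a network. Nidogens bind the gamma chain and link the laminin network to that of type IV collagen, while perlecan and agrin carry heparan sulfate chains that hold growth factors. In arteries the laminin network anchors smooth muscle and endothelial cells.

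The libraries held 17540532 to 30050073 counts in genes in the mesenteric arteries and 23487946 to 32251097 in the aorta. Sphk1 itself was at 2.64, 1.85, 1.71, 3.29 and 3.03 CPM in KO AngII aortas, against 24.2, 22.9, 16.1 and 11.5 CPM in WT AngII aortas, and at 2.89, 4.76, 4.94, 3.26 and 3.74 CPM in KO AngII mesenteric arteries, against 14.4, 17.8, 13.6 and 9.84 CPM in WT AngII mesenteric arteries. It was lower in every KO library, and the only gene edgeR called between KO AngII and WT AngII in either tissue. All 10 smooth muscle and all 10 endothelial markers passed the filter in both tissues. Markers of gut and pancreas summed to 85.4 to 31285 CPM in KO AngII, 10.2 to 47247 CPM in WT AngII and 29.0 to 20626 CPM in WT sham mesenteric libraries, against at most 6.89 CPM in the aorta. In 4 mesenteric libraries (KO AngII replicates 2, 3 and 4 and WT AngII replicate 1) over 10% of records were not aligned. In the aorta, WT AngII replicate 4 stood apart from its group in several of the genes below, and results that rest on it are given with and without it.

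Promoter sequence was looked up for the genes in a RefSeq table of mouse build GRCm38.p6, which held 7 of the 10 (Lama4, Lamc1 and Nid2 had no entry). The 250 bases before the annotated start are shown for a pair of genes that rose in the aorta after AngII (Lama2, Nid1) and a pair that were not called there (Lama5, Hspg2). The genes shown are examples and do not stand for all genes that rose or were not called. Each window is written 5′ to 3′ on the gene's strand. Capitals mark matches of the GC box (GGGCGG on either strand) and of the CArG box, the binding motif of serum response factor. The strands are minus for Lama2 and Lama5 and plus for Nid1 and Hspg2.

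Lama2, chr10:27616943-27617192: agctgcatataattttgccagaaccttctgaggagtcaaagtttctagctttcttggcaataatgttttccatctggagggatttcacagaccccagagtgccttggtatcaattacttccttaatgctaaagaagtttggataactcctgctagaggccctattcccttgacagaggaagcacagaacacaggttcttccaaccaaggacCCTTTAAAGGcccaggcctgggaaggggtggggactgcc
Nid1, chr13:13437352-13437601: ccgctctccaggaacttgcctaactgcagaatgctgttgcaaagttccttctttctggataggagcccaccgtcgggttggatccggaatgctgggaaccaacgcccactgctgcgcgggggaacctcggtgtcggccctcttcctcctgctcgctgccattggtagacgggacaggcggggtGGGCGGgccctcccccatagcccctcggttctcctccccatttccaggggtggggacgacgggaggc
Lama5, chr2:180225860-180226109: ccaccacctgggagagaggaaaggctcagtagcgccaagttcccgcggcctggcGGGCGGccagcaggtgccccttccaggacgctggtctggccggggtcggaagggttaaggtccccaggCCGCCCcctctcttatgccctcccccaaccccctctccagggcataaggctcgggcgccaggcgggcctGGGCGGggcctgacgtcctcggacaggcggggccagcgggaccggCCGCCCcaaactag
Hspg2, chr4:137468553-137468802: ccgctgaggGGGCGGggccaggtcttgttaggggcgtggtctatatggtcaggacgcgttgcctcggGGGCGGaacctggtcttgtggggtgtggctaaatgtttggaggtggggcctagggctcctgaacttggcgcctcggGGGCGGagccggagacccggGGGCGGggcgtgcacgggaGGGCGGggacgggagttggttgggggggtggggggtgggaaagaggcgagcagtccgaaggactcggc

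The Lama2 window had a GC content of 47.2%, no GC box and 1 CArG box, which 1.47% of the 32851 promoters in the table hold. The Nid1 window had a GC content of 64.4% and 1 GC box, the Lama5 window 72.4% and 4, and the Hspg2 window 70.0% and 5. A GC box occurs in 32.7% of all promoters. The TATA box (TATAAA), which is in 12.4% of promoters, was in none of the members' windows. Among the windows not printed, that of Lamb1 had a GC content of 62.0% and 2 GC boxes, and that of Lamb2 43.6% and none. Neither gene was called by edgeR in the aorta after AngII. Both annotated starts of Agrn had GC boxes, 12 and 2, with overlapping matches counted, at a GC content of 83.6% and 60.8%. These matches describe the letters in the windows and say nothing of binding.

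Levels were compared between genes per length, in TPM, a share of the library's transcripts on a fixed scale, computed from the counts over the length of all exons of a gene. Lamb2 was the most abundant of the 10 in every group, at 595 ± 149.6 TPM in WT sham mesenteric arteries and 766 ± 54.6 TPM in WT sham aortas (SD, n = 4 each), and Hspg2 was second, at 327 ± 80.0 and 517 ± 73.9 TPM in the same groups. In WT sham aortas these were followed by Lama5 at 142 ± 20.2, Lamc1 at 114 ± 12.1 and Nid1 at 99.7 ± 14.6 TPM, whose neighbouring ranges overlapped. Agrn was at 70.6 ± 6.17, Lama4 at 56.5 ± 3.06 and Lama2 at 25.5 ± 3.48 TPM, each apart from its neighbours. Nid2 at 10.1 ± 1.63 and Lamb1 at 8.75 ± 1.47 TPM were the lowest and overlapped with each other.

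The resting order differed between the vessel beds. In WT sham mesenteric arteries Nid1 came next, at 195 ± 11.9 TPM, and Lama2 was last, at 17.4 ± 2.38 TPM, apart from the others. Between them stood Lama5 at 149 ± 42.2, Lamc1 at 104 ± 6.93, Agrn at 76.3 ± 19.9, Nid2 at 58.0 ± 16.4, Lama4 at 48.9 ± 1.53 and Lamb1 at 45.5 ± 12.1 TPM, each overlapping with the next. Under AngII the order in the mesenteric arteries kept the same first 6 genes, in both KO AngII and WT AngII. In the aorta Nid1 stood next after Hspg2 under AngII, at 269 ± 18.9 TPM in KO AngII (n = 5) and 253 ± 48.4 TPM in WT AngII aortas (n = 4), and Lamc1 after Nid1, at 167 ± 11.2 and 178 ± 18.6 TPM in the same groups.

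**Figure D1:**
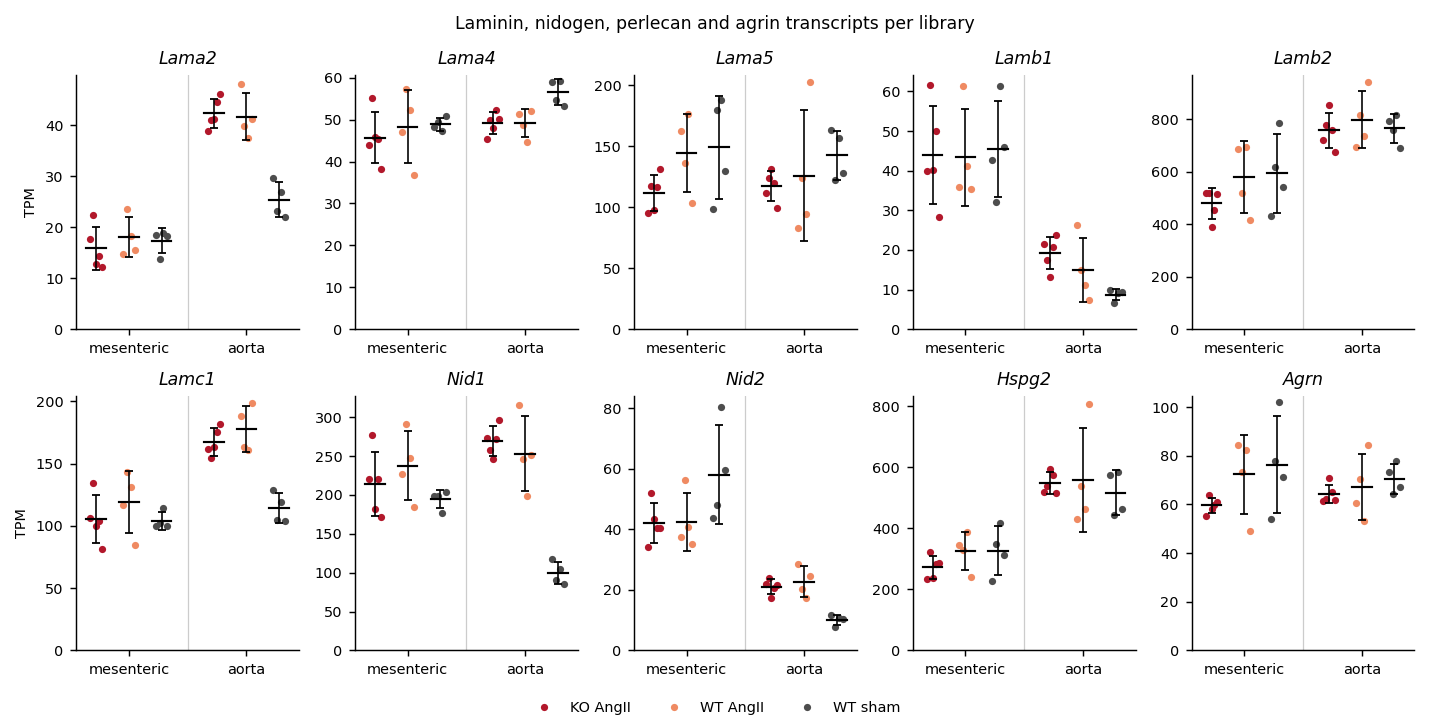
Level of each gene in TPM (linear axis from 0) in each library, 1 point per library, with the mean (line) and SD (bar) of each group; in each panel the mesenteric arteries are on the left and the aorta on the right. In the aorta Nid1, Nid2, Lama2 and Lamc1 stand higher in both AngII groups than in WT sham, with no overlap, while in the mesenteric arteries the groups of every gene overlap.

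In the aorta AngII raised the 2 nidogens, the laminin gamma chain and 1 alpha chain. Of the 10 genes, 4 were called higher in WT AngII than in WT sham aortas and none lower, where 14.7% of the 16863 genes tested were called higher and 10.8% lower (edgeR quasi-likelihood test, Benjamini-Hochberg adjusted p below 0.05). Nid1 had the largest rise and Nid2 the next, both over 2-fold. Lama2 and Lamc1 rose by 1.72-fold and 1.64-fold. The other 2 alpha chains, both beta chains, perlecan and agrin were not called. The median log2 fold change of the 10 was 0.45, against -0.00052 over all genes tested. With scaling to library size alone, which moved the median of all genes to -0.13, 10.4% of genes were called higher and 22.1% lower, and the same 4 members were called higher.

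Of the alpha chains, Lama2, whose laminins bind dystroglycan and are known from muscle basement membranes, was at 219, 180.2, 184 and 188 CPM in WT AngII aortas, against 124, 106, 118 and 99.6 CPM in WT sham aortas. All 4 AngII libraries lay above all sham libraries, and the log2 fold change was 0.78 ± 0.091 (SE, 95% interval 0.59 to 0.98, edgeR adjusted p = 3.92e-05). Lama4, an alpha chain known from endothelial and muscle basement membranes, was at 173, 162, 162 and 175 CPM in WT AngII and 183, 186, 191 and 177 CPM in WT sham aortas. The AngII libraries were all slightly below the sham ones, yet the log2 difference of -0.13 ± 0.065 was not called (edgeR adjusted p = 0.152). Scaling to library size alone gave Lama4 -0.26 and a call (adjusted p = 0.00608), and limma voom also called it, at -0.18 (adjusted p = 0.0257).

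Lama5, the alpha chain that binds integrins in many adult epithelial and vascular basement membranes, was at 262, 389.9, 323 and 642 CPM in WT AngII aortas, against 476, 391, 476 and 403 CPM in WT sham aortas. Replicate 4 was the highest of all aortic libraries and the other 3 AngII libraries lay below every sham library, so the groups overlapped through that library alone. The log2 difference was -0.11 ± 0.21 with all libraries (edgeR adjusted p = 0.742) and -0.43 ± 0.13 without replicate 4 (edgeR adjusted p = 0.0214), where Lama5 was called lower. Summed CPM of the fibroblast markers was 7461 in replicate 4, against 14299.7 at the highest in WT AngII replicate 1 and 6488 to 7053 in WT sham aortas, and that of the smooth muscle markers was 36535, against 18984 in replicate 1 and 32444 to 40319.8 in WT sham aortas. The part of these marker levels in the Lama5 result was not tested. In bulk tissue, fewer cells of a type and less RNA per cell cannot be told apart.

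Of the beta chains, Lamb1 was at 72.6, 40.6, 33.6 and 20.3 CPM in WT AngII aortas, against 24.9, 18.3, 24.5 and 25.7 CPM in WT sham aortas. Of the AngII libraries, 3 were above all sham libraries and replicate 4 lay within the sham range, so the groups overlapped. The log2 difference was 0.84 ± 0.32 (95% interval 0.13 to 1.55, edgeR adjusted p = 0.0814), which was not called. Without replicate 4 it was 1.06 ± 0.27 and was called (edgeR adjusted p = 0.0145), and DESeq2 (0.83, adjusted p = 0.0159) and limma voom (0.76, adjusted p = 0.0302) called it with all libraries. Over all genes 16.2% were called higher and 12.4% lower by DESeq2, 18.1% and 15.9% by limma voom, and 15.3% and 11.6% by edgeR without replicate 4. Lamb2, the abundant beta chain of muscle laminins, was at 1179.8, 1371, 1351 and 1601 CPM in WT AngII and 1240.4, 1299, 1329 and 1163 CPM in WT sham aortas, which overlapped (log2 difference 0.13 ± 0.10, 95% interval -0.092 to 0.35).

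Lamc1, the gamma chain shared by nearly all laminins of the vessel wall, was at 435, 373, 401 and 459 CPM in WT AngII aortas, against 273, 244, 264 and 237 CPM in WT sham aortas. Every AngII library was above every sham library (log2 fold change 0.71 ± 0.088, 95% interval 0.52 to 0.90, edgeR adjusted p = 6.11e-05). The size was close to that of Lama2, at 0.78, and below that of either nidogen.

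Nid1, the linker between laminin and type IV collagen, was at 612, 472, 414 and 486 CPM in WT AngII aortas, against 209, 177, 195 and 163 CPM in WT sham aortas. The lowest AngII library was well above the highest sham library, and the log2 fold change was 1.41 ± 0.12 (95% interval 1.16 to 1.67, edgeR adjusted p = 5.22e-06), a rise of 2.66-fold. Its paralog Nid2 was far lower in level, at 41.3, 28.8, 26.8 and 35.7 CPM in WT AngII aortas, against 15.5, 11.4, 14.9 and 14.7 CPM in WT sham aortas. The groups did not overlap (log2 fold change 1.23 ± 0.14, 95% interval 0.92 to 1.54, edgeR adjusted p = 4.24e-05), a rise of 2.34-fold. In the GENCODE M21 annotation 8.45% of the exon bases of Nid2, 3.86% of those of Lama2 and 2.06% of those of Nid1 overlap a gene on the opposite strand, and the sources used here do not say whether counting took strand into account.

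The proteoglycans were not called. Hspg2 was at 1713, 2135, 1991 and 3221 CPM in WT AngII and 2116, 1785, 2237 and 1831 CPM in WT sham aortas, with replicate 4 of WT AngII the highest and the other libraries overlapping (log2 difference 0.18 ± 0.16, 95% interval -0.16 to 0.53). Agrn was at 157, 181, 148 and 218 CPM in WT AngII and 174, 168, 193 and 172 CPM in WT sham aortas, again with replicate 4 the highest (log2 difference -0.0057 ± 0.10, 95% interval -0.23 to 0.21). Fibroblast markers moved in the same comparison: 4 of their 10 genes were called higher and 1 lower, with sums of 7461 to 14299.7 CPM in WT AngII and 6488 to 7053 CPM in WT sham aortas. All 8 macrophage markers were called higher (743 to 973 and 559.8 to 681 CPM in the same groups), and 3 of 10 smooth muscle markers were called lower (18984 to 36535 and 32444 to 40319.8 CPM). Schwann and nerve markers summed to 116 to 149.6 CPM in WT AngII and 69.9 to 107 CPM in WT sham aortas, without overlap, with 2 of 8 genes called higher. Pericyte markers summed to 1508.5 to 2168 CPM in WT AngII and 2059 to 2522 CPM in WT sham aortas, with 1 of 6 genes called higher and 2 lower. The part of these markers in the rises of Lama2, Lamc1, Nid1 and Nid2 was not tested.

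**Figure D2:**
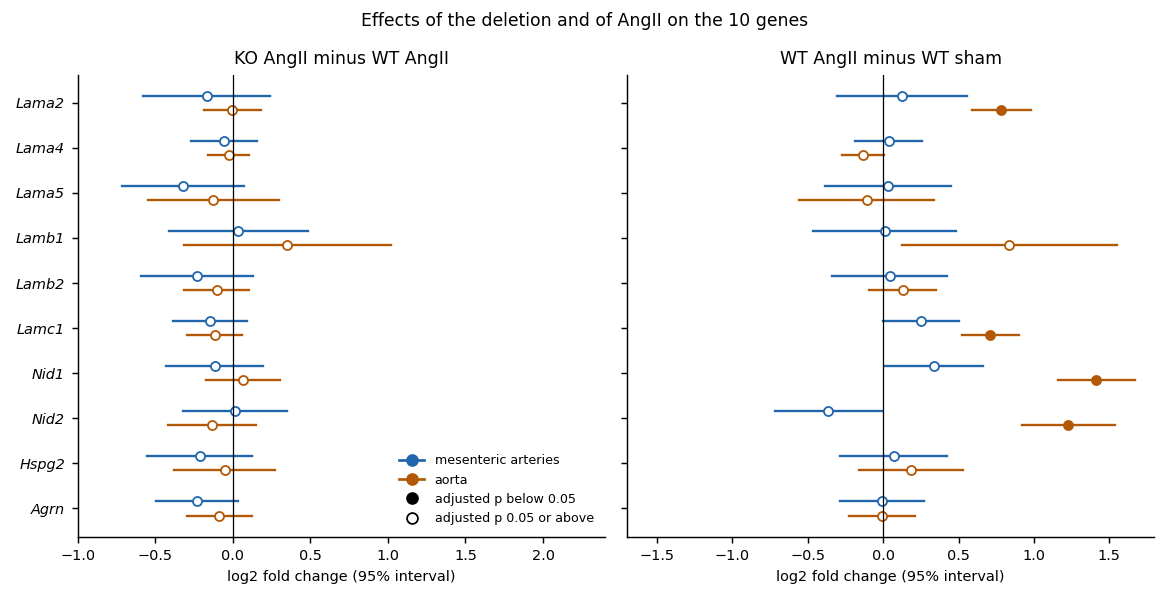
Log2 fold change of each gene with its 95% interval for KO AngII minus WT AngII (left) and WT AngII minus WT sham (right), in mesenteric arteries (blue) and aorta (brown); filled points have an edgeR adjusted p below 0.05. The filled points are Lama2, Lamc1, Nid1 and Nid2 in the aorta after AngII, between 0.71 and 1.41, and every interval of the deletion spans 0.

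In the mesenteric arteries none of the 10 genes was called after AngII, where 0.183% of the 17513 genes tested were called higher and 0 lower. At an unadjusted p under 0.05 stood Nid1 (0.044) and Nid2 (0.0455), and DESeq2 and limma voom called none of the 10 either, where DESeq2 called 1.36% of genes higher and 0.405% lower and limma voom 1.12% and 0.303%. The spread between mesenteric libraries was larger than in the aorta (common dispersion 0.127, against 0.0286), so intervals are given.

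Nid1 was at 431, 549, 513 and 519 CPM in WT AngII mesenteric arteries, against 455, 408, 319 and 411 CPM in WT sham mesenteric arteries. Most AngII libraries lay above the sham ones and replicate 1, a library with many records not aligned, lay among them (log2 difference 0.34 ± 0.15, 95% interval 0.011 to 0.67, edgeR adjusted p = 0.453). Nid2 was at 52.9, 79.1, 62.7 and 73.9 CPM in WT AngII, against 74.8, 73.7, 108 and 89.4 CPM in WT sham mesenteric arteries, so its mean difference had the other sign, with overlap (log2 difference -0.36 ± 0.16, 95% interval -0.72 to -0.0086, edgeR adjusted p = 0.46). Lamc1 was at 265, 322, 324 and 285 CPM in WT AngII, against 272, 250.1, 244 and 239 CPM in WT sham mesenteric arteries (log2 difference 0.25 ± 0.12, 95% interval -0.00086 to 0.50, edgeR adjusted p = 0.47). Lama2 overlapped fully, at 66.4, 104, 89.2 and 103 CPM in WT AngII and 99.2, 67.0, 80.0 and 87.0 CPM in WT sham mesenteric arteries (log2 difference 0.12 ± 0.20, 95% interval -0.31 to 0.56). For the other 6 genes the log2 differences ran from -0.005 for Agrn to 0.07 for Hspg2, and the widest interval, that of Lamb1, was -0.46 to 0.48. Without the 4 libraries in which over 10% of records were not aligned, Nid1 was at 0.41 ± 0.12, Nid2 at -0.26 ± 0.16 and Lamc1 at 0.31 ± 0.086, and none was called.

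The response to AngII differed between the vessel beds for both nidogens. In 1 model of all 26 libraries, the AngII effect in the mesenteric arteries minus that in the aorta was -1.60 ± 0.23 on the log2 scale for Nid2 (95% interval -2.08 to -1.13, edgeR adjusted p = 0.000519) and -1.09 ± 0.20 for Nid1 (95% interval -1.50 to -0.67, edgeR adjusted p = 0.00406). These were the 2 members called, both lower, where 1.66% of the 18520 genes tested were called lower and 0.68% higher. Lamc1, at -0.47 ± 0.15 (adjusted p = 0.0979), and Lama2, at -0.67 ± 0.23 (adjusted p = 0.136), were not called by edgeR, so a difference between the beds was not shown for them. DESeq2 called Lamc1 (-0.45, adjusted p = 0.0460), where it called 2.94% of genes lower and 1.74% higher. Lamb1 stood at -0.84 ± 0.40 (95% interval -1.66 to -0.014, edgeR adjusted p = 0.319), and the other 5 genes between -0.13 and 0.16. Of the fibroblast markers, 3 of 10 were called lower in the same test, and their part in the nidogen difference was not tested.

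The deletion of Sphk1 gave no called change among the 10 genes in either tissue. Between KO AngII and WT AngII, 0 of the 10 were called in the aorta, where 0.00593% of the 16863 genes tested were called, and 0 of the 10 in the mesenteric arteries, where 0.00571% of 17513 were called. None of the 10 had an unadjusted edgeR p under 0.05 in either tissue, and neither DESeq2 nor limma voom called any. In the aorta DESeq2 called 0.0237% of genes higher and 0.0119% lower and limma voom 0% and 0.00593%; in the mesenteric arteries DESeq2 called 0.00571% in each direction and limma voom 0% and 0.00571%. A p above the threshold does not show that the groups are alike, so the intervals are given.

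In the aorta the genes that AngII raised overlapped between KO AngII and WT AngII. Nid1 was at 536, 498, 463, 522 and 582 CPM in KO AngII aortas, against 612, 472, 414 and 486 CPM in WT AngII aortas, and the ranges overlapped (log2 difference 0.069 ± 0.11, 95% interval -0.17 to 0.31). Nid2 was at 31.8, 34.2, 24.1, 29.3 and 31.9 CPM in KO AngII and 41.3, 28.8, 26.8 and 35.7 CPM in WT AngII aortas (log2 difference -0.13 ± 0.13, 95% interval -0.42 to 0.15). Lama2 was at 179, 186, 183, 201 and 213 CPM in KO AngII and 219, 180.2, 184 and 188 CPM in WT AngII aortas (log2 difference -0.0032 ± 0.086, 95% interval -0.19 to 0.18). These intervals leave room for changes of up to about 0.42 on the log2 scale for Nid2, and less for Lama2. Lamc1 was at 377, 355, 366, 400.3 and 427 CPM in KO AngII and 435, 373, 401 and 459 CPM in WT AngII aortas (log2 difference -0.11 ± 0.083, 95% interval -0.29 to 0.063).

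Lamb1 had the widest interval of the 10 in this comparison. It was at 59.8, 47.9, 35.4, 57.0 and 66.5 CPM in KO AngII aortas, against 72.6, 40.6, 33.6 and 20.3 CPM in WT AngII aortas. The KO libraries lay inside the range of the WT AngII libraries, whose replicates 1 and 4 were the extremes (log2 difference 0.35 ± 0.30, 95% interval -0.32 to 1.02). Lama5 was at 359, 393, 407, 376 and 320.1 CPM in KO AngII, also inside the WT AngII range (log2 difference -0.12 ± 0.20, 95% interval -0.55 to 0.30). The upper end of that range was WT AngII replicate 4, and the KO values of 393 and 407 CPM lay above all other WT AngII libraries. Leaving out single libraries moved the difference between -0.29 and 0.19 for Lama5 and between 0.12 and 0.76 for Lamb1, without a call. The log2 differences of the other 4 genes ran from -0.10 for Lamb2 to -0.027 for Lama4.

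In the mesenteric arteries the log2 differences of KO AngII from WT AngII ran from -0.32 for Lama5 to 0.035 for Lamb1. Lama5 was at 337, 410.4, 313, 404 and 537 CPM in KO AngII, against 507, 420.0, 598 and 476 CPM in WT AngII mesenteric arteries, and overlapped through KO replicate 5 (95% interval -0.72 to 0.071, edgeR adjusted p = 0.798). Agrn was at 159, 182, 152, 169.9 and 203 CPM in KO AngII, against 215, 185, 228 and 185 CPM in WT AngII mesenteric arteries (log2 difference -0.23 ± 0.12, 95% interval -0.50 to 0.031). For Lamb2 the difference was -0.23 ± 0.17 and for Hspg2 -0.21 ± 0.15. Without the 4 libraries in which over 10% of records were not aligned, only KO AngII replicates 1 and 5 and WT AngII replicates 2, 3 and 4 were compared. The differences were then -0.18 ± 0.26 for Lama5, -0.13 ± 0.17 for Agrn, 0.016 ± 0.20 for Lamb2 and -0.19 ± 0.21 for Hspg2. None was called, and with so few libraries this says little. No difference between the tissues in the effect of the deletion was called for the 10 by edgeR (0 called, where 0% of the 18520 genes tested were called), nor by DESeq2 (0.0216% of genes higher and 0.0594% lower) or limma voom (0%), and none had an unadjusted edgeR p under 0.05.

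Set against WT sham, KO AngII aortas had 5 of the 10 genes called higher and none lower, where 16.6% of the 16863 genes tested were called higher and 14.2% lower. This comparison shares its groups with those above, and its values are set beside theirs without a test of likeness. Nid1 was 1.48 ± 0.12, Nid2 1.10 ± 0.14, Lama2 0.78 ± 0.087 and Lamc1 0.60 ± 0.084 on the log2 scale, beside 1.41, 1.23, 0.78 and 0.71 for WT AngII. The fifth was Lamb1, at 1.19 ± 0.31 (95% interval 0.50 to 1.88, edgeR adjusted p = 0.0136). Each KO library held more Lamb1 than each WT sham library. Lama4 was lower in every KO library than in every WT sham library but not called (-0.16 ± 0.061, edgeR adjusted p = 0.0609), and 6 of its 20 alternatives called it. In the same comparison 5 of 10 fibroblast markers were called higher and 1 lower, all 8 macrophage markers higher and 5 of 10 smooth muscle markers lower, 2 of 8 nerve markers higher and 2 of 6 pericyte markers lower with 1 higher, and their part was not tested. None of the 10 was called in the mesenteric arteries between KO AngII and WT sham, where 0.457% of the 17513 genes tested were called higher and 0.251% lower. Nid2 (unadjusted p = 0.0429, -0.35 ± 0.15) was the only one of the 10 with an unadjusted edgeR p under 0.05, and none was called by DESeq2 (5.13% of genes higher and 2.89% lower) or limma voom (1.5% and 1.22%).

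At rest the vessel beds differed most in Nid2 and Lamb1. Between WT sham mesenteric arteries and WT sham aortas 3 of the 10 genes were called higher and 2 lower, where 20.7% of the 18520 genes tested were called higher and 17.7% lower. Nid2 was at 74.8, 73.7, 108 and 89.4 CPM in mesenteric arteries, against 15.5, 11.4, 14.9 and 14.7 CPM in aortas, a difference of 5.72-fold (log2 2.52 ± 0.17, edgeR adjusted p = 4.18e-11). Lamb1 was at 139.7, 94.0, 157 and 132 CPM in mesenteric arteries, against 24.9, 18.3, 24.5 and 25.7 CPM in aortas, a difference of 5.24-fold (log2 2.39 ± 0.29, edgeR adjusted p = 7.13e-07). In both genes the lowest mesenteric library was far above the highest aortic one. Nid1 was higher by a log2 difference of 1.00 ± 0.14 (edgeR adjusted p = 4.84e-06), at 319 to 455 CPM in mesenteric arteries and 163 to 209 CPM in aortas. These CPM are scaled within each tissue, and the fold changes come from the model of all 26 libraries.

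Perlecan and the muscle alpha chain went the other way. Hspg2 was at 1069.5, 1479, 1552 and 1299.6 CPM in WT sham mesenteric arteries, against 2116, 1785, 2237 and 1831 CPM in WT sham aortas (log2 difference -0.66 ± 0.17, edgeR adjusted p = 0.00317). Lama2 was at 99.2, 67.0, 80.0 and 87.0 CPM in mesenteric arteries, against 124, 106, 118 and 99.6 CPM in aortas, narrowly without overlap (log2 difference -0.52 ± 0.16, edgeR adjusted p = 0.0141). Without mesenteric WT sham replicate 2 the Lama2 difference was -0.43 and no longer called (edgeR adjusted p = 0.0586). Lamb2 lay at the threshold (-0.37 ± 0.15, edgeR adjusted p = 0.0506), and 13 of its 34 alternatives called it lower. Endothelial markers were higher in the mesenteric arteries for 9 of 10 genes (3986 to 4289 CPM, against 982 to 1119 CPM in the aorta), and nerve markers for 7 of 8. All 7 gut and pancreas markers tested were also called higher, with sums of 29.0 to 20626.5 CPM, against 2.91 to 5.89 CPM in the aorta. The part of these markers in the resting differences was not tested.

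The make-up of the laminins was described by shares and by ratios of related genes within a library, which do not depend on how libraries are scaled. Lama5 made up most of the TPM of the 3 alpha chains, 56.1 ± 3.35% in KO AngII, 56.4 ± 9.66% in WT AngII and 63.3 ± 1.69% in WT sham aortas. Lama2 made up 20.3 ± 1.96% in KO AngII and 20.1 ± 5.2% in WT AngII aortas, against 11.3 ± 0.42% in WT sham aortas, and every AngII aorta was above every sham aorta. Lamb1 was 7.25 ± 1.72% of the TPM of both beta chains in WT sham mesenteric arteries and 1.13 ± 0.205% in WT sham aortas. Nid2 was 15.1 ± 1.16% of the nidogen TPM in WT AngII and 22.9 ± 5.89% in WT sham mesenteric arteries, and 8.21 ± 0.587% in WT AngII and 9.27 ± 1.18% in WT sham aortas.

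Of 25 exact two-sided permutation tests, of 5 ratios in 5 comparisons, none had an adjusted p below 0.05. With 4 libraries against 4 the smallest p possible is 0.0286, so an adjusted p below 0.05 was out of reach for such a comparison unless most of the 25 tests came as low, and 5 tests reached it, each with groups that did not overlap and an adjusted p of 0.143. The log2 ratio of Lama2 to Lama5 was -0.78, -1.63, -1.33 and -2.30 in WT AngII aortas and -2.46, -2.40, -2.54 and -2.54 in WT sham aortas, a mean difference of 0.97. That of Nid1 to Nid2 was 2.60, 2.37, 2.61 and 2.39 in WT AngII and 2.18, 2.04, 1.14 and 1.78 in WT sham mesenteric arteries, a mean difference of 0.71. The other 3 were resting differences of the mesenteric arteries from the aorta: Lamb1 to Lamb2 (2.76), Nid1 to Nid2 (-1.51) and Hspg2 to Agrn (-0.76). Between KO AngII and WT AngII the smallest p of the 10 tests was 0.0714, for Nid1 to Nid2 in the aorta (mean difference 0.20), where 0.00794 was possible with 5 libraries against 4.

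**Figure D3:**
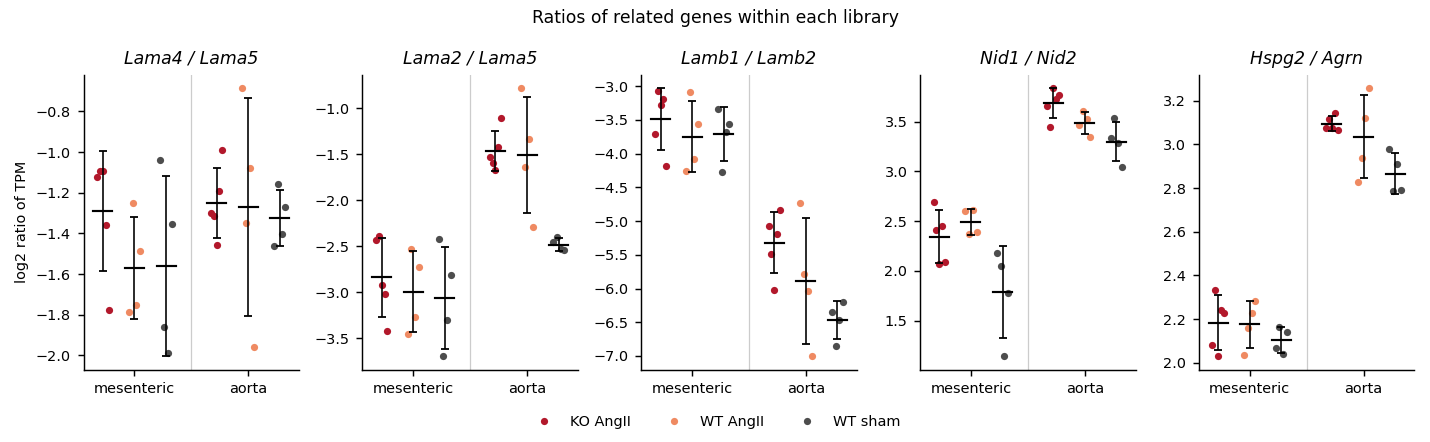
Log2 ratio of the TPM of related genes in each library (1 point per library, with the mean as a line and the SD as a bar), in mesenteric arteries and aorta for KO AngII, WT AngII and WT sham. The Lama2 to Lama5 ratio is higher in both AngII groups of the aorta than in WT sham, and the Nid1 to Nid2 ratio is lower in mesenteric arteries than in aorta in every group.

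Within a group, the genes moved between libraries in sets. The sets were picked after the values were seen, and the correlations are descriptions over 13 libraries that share depth, composition and 3 group means, which were subtracted. Lama5, Lamb2, Hspg2 and Agrn varied together: Pearson r of their deviations from the group means was 0.818 to 0.925 in the mesenteric arteries and 0.742 to 0.969 in the aorta. Without aortic WT AngII replicate 4 the aortic range was 0.481 to 0.889. Lama2, Lamc1 and Nid1 formed the other set, with r of 0.800 to 0.827 in the mesenteric arteries and 0.663 to 0.853 in the aorta. Lama4, not counted in either set, also varied with Lama2, Lamc1 and Nid1. Its r with them was 0.728 to 0.930 in the mesenteric arteries and 0.504 to 0.658 in the aorta. Between the sets r ran from -0.286 to 0.201 in the mesenteric arteries and from -0.437 to 0.394 in the aorta, where the range without WT AngII replicate 4 was -0.553 to 0.026. Nid2 followed its paralog Nid1 in the aorta (r = 0.718) but hardly in the mesenteric arteries (r = 0.124).

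In the aorta the first set varied with several lists of cell type markers, not only those of fibroblasts and smooth muscle. Its r was 0.688 to 0.817 with pericyte, 0.532 to 0.692 with endothelial, -0.825 to -0.748 with lymphoid and -0.886 to -0.657 with adipocyte markers. Without WT AngII replicate 4 these were 0.494 to 0.792, 0.370 to 0.661, -0.682 to -0.473 and -0.803 to -0.321. The deviations of Lama5, Lamb2, Hspg2 and Agrn had r of -0.902 to -0.730 with the summed fibroblast markers and 0.490 to 0.918 with the summed smooth muscle markers; without WT AngII replicate 4 these were -0.839 to -0.434 and 0.230 to 0.920. For Lama2, Lamc1 and Nid1 the aortic r was 0.086 to 0.591 with the fibroblast markers and -0.657 to -0.236 with the smooth muscle markers, and 0.615 to 0.772 and -0.724 to -0.555 without replicate 4. With these markers Lamb1 went the opposite way to Lama5, Lamb2, Hspg2 and Agrn in the aorta, with the same signs as Lama2, Lamc1 and Nid1. Its aortic r with the genes of the first set ran from -0.920 for Lamb2 to -0.588 for Agrn. Without WT AngII replicate 4 it ran from -0.858 for Lamb2 to -0.133 for Agrn. The mesenteric range was -0.314 for Lama5 to 0.028 for Hspg2. In the aorta Lamb1 had r = 0.871 with the fibroblast markers, and 0.766 without replicate 4. For smooth muscle markers it had r = -0.940 and Spearman's rho = -0.973, and r = -0.882 without the 2 libraries farthest from the median. In the mesenteric arteries Lama2, Lamc1 and Nid1 followed the fibroblast markers, with r of 0.628 to 0.924, and the skeletal and cardiac muscle markers, with r of 0.539 to 0.742. There the first set had r of 0.535 to 0.620 with nerve, 0.419 to 0.651 with smooth muscle and -0.709 to -0.495 with mesothelial markers. The part of these cell types in any difference between groups was not tested. The longest transcripts of Lama5, Lamb2, Hspg2 and Agrn have a GC content of 56.5 to 60.9%, above 84.9% or more of the expressed genes, against 47.7 to 53.0% for Lama2, Nid1 and Lamc1. An index of GC-rich against GC-poor transcripts in each library had r of 0.635 to 0.747 with the first set in the mesenteric arteries and -0.416 to 0.204 in the aorta, and its part was not tested.

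**Figure D4:**
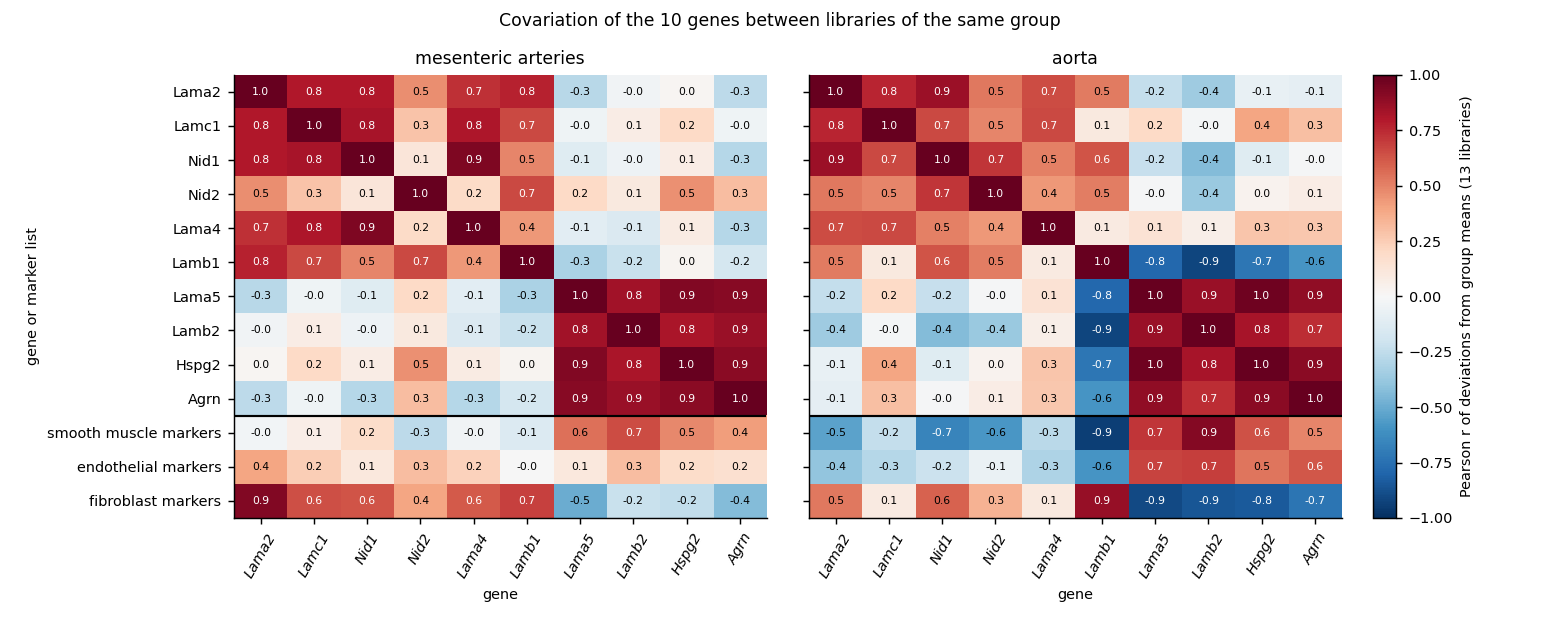
Pearson r between the deviations of log2 CPM from the group means over the 13 libraries of each tissue, for pairs of the 10 genes and, below the black line, for each gene with the summed markers of 3 cell types; red is positive and blue negative. Lama5, Lamb2, Hspg2 and Agrn form a block of high r in both tissues, and Lamb1 is blue against that block in the aorta. The aortic values include WT AngII replicate 4, without which the r of Lamb1 with Agrn was -0.133.

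Plotted against the smooth muscle markers, Lamb1 in the aorta lay along 1 falling band across all 3 groups. Its highest value, 72.6 CPM, was in WT AngII replicate 1, which had the lowest smooth muscle sum, and its lowest, 18.3 CPM, in WT sham replicate 2, which had the highest. The groups shared little of the marker axis: of the AngII aortas only KO AngII replicate 3 and WT AngII replicate 4 had smooth muscle sums within the range of WT sham aortas. Nid1 was at 463 and 486 CPM in these, against 163 to 209 CPM in WT sham aortas. Both libraries were singled out after the values were seen, and the part of smooth muscle content in the Nid1 and Lamb1 differences was not tested.

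**Figure D5:**
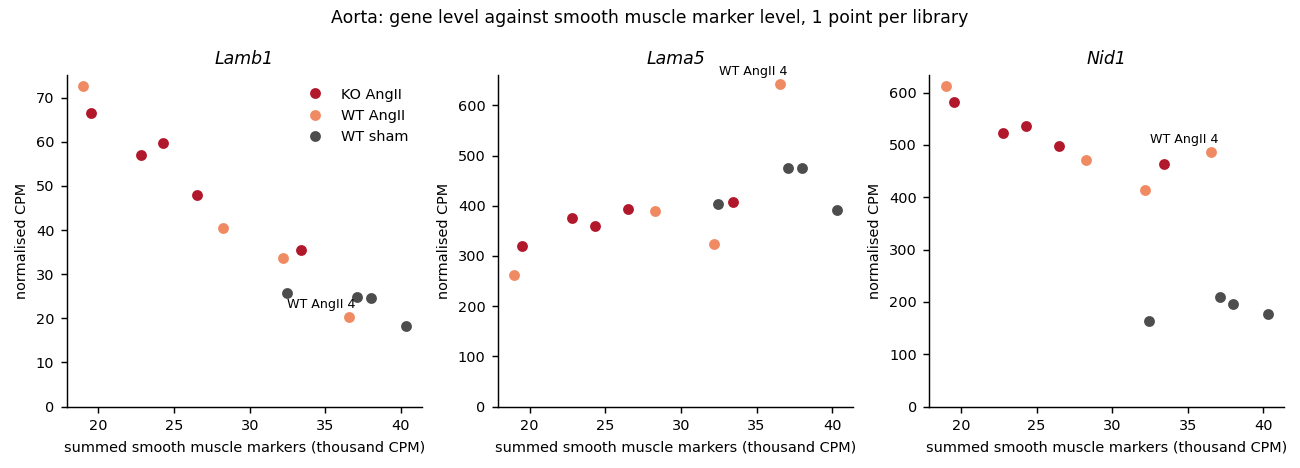
Normalised CPM of Lamb1, Lama5 and Nid1 (linear vertical axes from 0) against the summed CPM of 10 smooth muscle markers (linear horizontal axis, not from 0), 1 point per aortic library, coloured by group. Lamb1 falls along the marker axis from 72.6 to 18.3 CPM, WT AngII replicate 4 is the highest point for Lama5, and the Nid1 values of both AngII groups lie above all WT sham values, although only 1 library of each AngII group falls within the marker range of WT sham.

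Lamc1, as the chain shared by most laminins, was compared with all genes of a mean log2 CPM of at least 3. By Pearson r of log2 CPM over the 13 libraries of a tissue, groups included, the 5 genes most like it in the aorta were Col6a3, Atp8b2, Fstl1, Col5a1 and Fbn1 (r of 0.978 to 0.991), with Lama2 15th of 9903 genes, Nid1 44th and Nid2 102nd. Those in the mesenteric arteries were Igf2r, Nid1, Slc36a4, Fbn1 and Pkd2 (r of 0.826 to 0.878), with Lama2 39th of 10360 genes, Lama4 44th and Nid2 5759th. In the aorta Lama4 was 7801st (r = -0.578 with groups included). For deviations from the group means its aortic r with Lamc1 was 0.658, beside 0.663 for Nid1. Fbn1, which encodes the microfibril protein fibrillin-1, was in both lists of 5.

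The other genes of the basement membrane and its receptors were taken from 5 lists of 83 genes. In the aorta after AngII, 11 of 19 other basement membrane components tested were called higher and none lower, where 14.7% of all genes were called higher and 10.8% lower, with a median log2 fold change of 0.64 (-0.00052 over all genes). They included Sparc, a collagen-binding glycoprotein (1.90 ± 0.15, edgeR adjusted p = 2.37e-06), Pxdn, which cross-links type IV collagen (0.68 ± 0.084), Col15a1 (1.23 ± 0.17) and Col4a3 (1.26 ± 0.17). Col15a1, Fbln1 and Lamc3 of these lists are also on the fibroblast marker list. Ntn4, from the list of other laminin and netrin-4 chains, encodes a protein that binds laminin gamma chains and rose by 0.62 ± 0.13 on the log2 scale. Lama1 reached at most 5 counts in any aortic library and was not tested there.

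Among 16 laminin, agrin and other matrix receptors 2 were called higher and 1 lower in WT AngII against WT sham aortas (median 0.09). These shares are near or below those of all genes, 14.7% and 10.8%. Sdc1, a cell surface heparan sulfate proteoglycan, rose by 1.03 ± 0.22 and Itga6, a laminin-binding integrin chain, by 1.49 ± 0.50 (edgeR adjusted p = 0.049), while Itga8 fell, at -0.54 ± 0.16. Of 19 genes of the dystrophin complex and of dystroglycan glycosylation, 3 were called lower, against 10.8% of all genes, and none higher (median -0.0059): the syntrophin Sntb1 at -1.15 ± 0.12, the sarcoglycan Sgca at -0.58 ± 0.18 and the dystrobrevin Dtna at -0.59 ± 0.19. Of 20 genes of heparan sulfate synthesis and editing, Sulf1, an enzyme that trims sulfate from the chains (0.84 ± 0.11), Hs2st1 (0.72 ± 0.16) and Xylt1 (0.61 ± 0.16) were called higher and Extl1 lower (-1.86 ± 0.49), with a median of 0.06; 3 of 20 is close to the 14.7% of all genes called higher. Of 10 smooth muscle markers 3 were called lower in the same comparison, and their part in the fall of the 3 dystrophin complex genes was not tested.

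No gene of the 5 lists was called in the mesenteric arteries after AngII, where 0.183% of all genes were called higher and 0% lower. Closest were Itga9, an integrin chain (0.64 ± 0.12, unadjusted p = 0.000143, edgeR adjusted p = 0.0628), Col4a3 (0.59 ± 0.18) and Sparc (0.57 ± 0.17). The AngII effect in the mesenteric arteries minus that in the aorta was called lower for Sparc (-1.34 ± 0.22), Fbln2 (-1.06 ± 0.25), Col15a1 (-0.86 ± 0.23), Sdc1 (-1.27 ± 0.29) and Hs2st1 (-0.76 ± 0.19), and higher for Sntb1 (0.91 ± 0.17). In that test of the difference 1.66% of all genes were called lower and 0.68% higher. Between KO AngII and WT AngII no gene of the 5 lists was called in either tissue. Over all genes 0.00593% were called in the aorta and 0.00571% in the mesenteric arteries. At rest the mesenteric arteries had 4 of 6 other laminin and netrin-4 chains called higher and 1 lower, 7 of 21 other basement membrane components higher and 10 lower, and 4 of 16 receptors in each direction, where 20.7% of all genes were called higher and 17.7% lower. The receptor counts are near these shares. The mesenteric arteries had more Lama3 (2.97 ± 0.22), Ntn4 (1.14 ± 0.14), Itgb4 (3.53 ± 0.26) and Itga6 (4.09 ± 0.41) than the aorta. They had less Lamc3 (-2.29 ± 0.21), Npnt, an integrin ligand (-2.70 ± 0.21), and Itga8 (-2.47 ± 0.18). All of these were called by edgeR. In the same comparison all 7 gut and pancreas markers tested were called higher in the mesenteric arteries, and their part in these differences was not tested.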

How the data were processed

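Poly(A) RNA of aorta and mesenteric arteries was sequenced in 26 libraries, with RNA from the PureLink RNA Micro kit and NEBNext Ultra II Directional libraries read paired-end on an Illumina NovaSeq, per the labels' protocols. The deposited tables hold raw counts of reads per gene, 1 table per library, which the authors made with cutadapt, HISAT2 and HTSeq on mouse build GRCm39, per the submitters' processing notes. The sources used here give neither tool versions nor whether HTSeq counted by strand.

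The 5 HTSeq summary lines were left out of library sizes: 6.64% to 11.1% of records fell in no feature, 1.17% to 1.61% were ambiguous, 1.96% to 3.56% had low alignment quality and 4.82% to 13.0% did not align uniquely. Between 0.572% and 0.744% of records were not aligned in the aorta and between 0.855% and 14.7% in the mesenteric arteries. Symbols and exon lengths came from GENCODE M21, and 52083 identifiers had a symbol. GENCODE M21 is an annotation of an older mouse build than that of the counts, so no gene coordinates were taken from it. TPM values were computed here from the counts over union exon length. CPM values were computed here with TMM factors within each tissue.

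Comparisons used edgeR 4.0.16 (R 4.3.3; filterByExpr, TMM, robust quasi-likelihood F test), with 1 model of 3 groups per tissue and 1 model of all 26 libraries for the differences between tissues. A gene was called at a Benjamini-Hochberg adjusted p below 0.05 over all genes tested. Standard errors and 95% intervals come from the F statistic. DESeq2 1.42.0, limma 3.58.1 voom, other scalings, filters and left-out libraries were alternatives. The code was tested on simulated counts. Replicates of a group differed beyond counting noise (chi-square per degree of freedom of 9.09 to 255). The labels do not say whether each library is a separate mouse or whether both tissues came from the same mice, so p-values measure the spread between these libraries.

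The 10 genes and all lists were chosen with earlier results of these data known. Named genes were the 10, Sphk1, up to 4 called genes per list and comparison, taken by adjusted p (up to 2, by p, where none was called), and the 5 genes per tissue most like Lamc1. The result of 1 related gene is not reported here.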

Additional observations from a re-analysis of the deposited data

Results flagged for a closer look

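The responses of both nidogens to AngII differed between the vessel beds by a test of the difference itself. The AngII effect in the mesenteric arteries minus that in the aorta was -1.09 on the log2 scale for Nid1 and -1.60 for Nid2 in the edgeR model of all 26 libraries. It ran from -1.18 to -0.97 for Nid1 and from -1.69 to -1.37 for Nid2 over the reported fit and its 34 alternatives, and was called in all of them.

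In 90 groups of 4 or 5 libraries, the highest and lowest value were compared with their neighbours, and chance alone singles out about 1 in 20 groups. Mesenteric KO AngII replicate 2 stood far above its group for Lama4, at 203.8 CPM against 155 to 167 CPM in the other 4 libraries. That library had 11.4% of records not aligned. Replicates 3 and 4 of the same group, which did not stand apart, had 14.7% and 14.2%. The part of this was not tested. Aortic WT sham replicate 2 stood below its group for Lamb1, at 18.31 CPM against 24.5 to 25.7 CPM in the other 3 libraries, and it had the highest smooth muscle marker sum of the aortic libraries, 40319.8 CPM.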

How the results depend on the processing

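The number of members called in a comparison, both directions summed, stayed within 1.5 times in all 228 pairs of a comparison and an alternative. By direction it moved more: the members called lower at rest, 2 in the reported fit, were 1 to 4, and those called lower in KO AngII against WT sham aortas, 0 in the reported fit, were up to 2, in a fit of only those groups. Of the single-gene values 2249 kept their side of the threshold, 30 gained a call and 1 lost it. No value called in either fit changed sign, and 106 values called in neither did, among them Hspg2 in the aorta after AngII (0.18, down to -0.038). The lost call was that of Lama2 between the tissues at rest, without mesenteric WT sham replicate 2 (-0.43). In the aorta after AngII the calls of Nid1, Nid2, Lama2 and Lamc1 held in all 20 alternatives, at 1.29 to 1.49, 1.08 to 1.31, 0.66 to 0.83 and 0.58 to 0.76. Leaving out single libraries moved Lama5 between -0.43 and 0.05 and Lamb1 between 0.43 and 1.06. Precision in the mesenteric arteries is limited by the spread between libraries.

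Counts over all genes depended more on the setting. In the aorta after AngII 2475 genes were called higher and 1826 lower, against 1747 and 3729 with scaling to library size alone; for KO AngII against WT sham aortas 2401 were lower, against 4075. After AngII in the mesenteric arteries 32 were higher and 0 lower, against 238 and 71 with DESeq2, 197 and 53 with limma voom, 72 and 6 in a fit of only those groups and 15 and 0 with library size alone. Without KO AngII replicate 3 they were 109 and 7, and without any 1 of the WT libraries 8 to 19 and 0, lowest without WT sham replicate 1. For KO AngII against WT sham mesenteric arteries 80 and 44 became 898 and 507 with DESeq2, 262 and 213 with limma voom, 270 and 19 without the libraries over 10% not aligned and 15 and 0 in a fit of only those groups; leaving out single libraries gave 22 higher (without WT sham replicate 4) to 120 (without KO AngII replicate 3) and 0 to 45 lower (without WT sham replicates 2 and 1). Without the libraries over 10% not aligned 56 genes were higher in KO AngII than in WT AngII mesenteric arteries and 11 in the deletion's difference between tissues, against 0 for both. Fits without those libraries kept only replicates 1 and 5 of the mesenteric KO AngII group. Of the AngII effect's difference between tissues, 126 and 308 calls became 322 and 545 with DESeq2, 538 and 713 with limma voom, 63 and 209 with no filter and 282 and 437 without the libraries over 10% not aligned; leaving out single libraries gave 56 to 241 and 163 to 417, with 56 and 196 without aortic WT AngII replicate 1. The causes were not tested.

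The labels do not say what a replicate number marks, nor whether same-numbered libraries of both tissues came from the same mouse, and the numbers were not taken as pairs: correlations of same-numbered libraries' deviations ran from -0.398 to 0.159 within the aorta, from -0.392 to 0.431 within the mesenteric arteries and from -0.191 to 0.218 across tissues, where 11 of 13 were positive and 6 over 0.1. With the replicate number as a block, 4 members were called higher after AngII in the aorta (2179 genes higher and 1591 lower), 5 in KO AngII against WT sham aortas (2288 and 1743) and 0 in the mesenteric comparisons, where all-gene counts were 8 and 0 after AngII and 19 and 1 for KO AngII against WT sham. With a replicate block across tissues 2 members were lower in the AngII effect of the mesenteric arteries against that of the aorta (105 genes higher and 207 lower), and 3 were higher and 2 lower at rest (3539 and 3231).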

Other observations

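Related genes were also compared between KO AngII and WT sham, groups that differ in both the deletion and AngII. In the aorta 11 of 19 other basement membrane components tested were called higher and none lower, where 16.6% of all genes were called higher and 14.2% lower, led by Sparc (1.83 ± 0.14 on the log2 scale), Pxdn (0.69 ± 0.08), Fbln2 (0.98 ± 0.14) and the type IV collagen chain Col4a5 (0.67 ± 0.11). Of 20 genes of heparan sulfate synthesis and editing 6 were called higher and 1 lower, beside the same 16.6% and 14.2%, with Sulf1 at 0.86 ± 0.10 and the sulfotransferase Hs6st2 at 0.95 ± 0.17. Of 19 genes of the dystrophin complex and of dystroglycan glycosylation 5 were called lower, beside 14.2% of all genes, and none higher, including Sntb1 (-1.01 ± 0.11) and Dmd, which encodes dystrophin (-0.40 ± 0.14). In the same comparison 5 of 10 smooth muscle markers were called lower, and their part was not tested. In the mesenteric arteries the heparan sulfate sulfotransferase Hs3st1 was the only gene of the 5 lists that edgeR called between KO AngII and WT sham, at -0.50 ± 0.097 (edgeR adjusted p = 0.0422). Over all genes 0.457% were called higher there and 0.251% lower.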
